A study of Homo sapiens with 3 samples.

Results

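The 35 genes described here make and process the sphingolipids and other lipids of the epidermal barrier. They were chosen by name, as enzymes of ceramide synthesis, head group addition, breakdown and phosphorylation, fatty acid elongases, and genes of acylceramide formation and lipid transport. Earlier results of these data were known when they were chosen. All 35 were found, among 23595 genes on the arrays. For 32 the gene name in the file annotation was the current or an older symbol, and SGMS1, SGMS2 and CYP4F22 were found through their Entrez gene numbers. They are read by 63 transcripts, with 14 genes on a single transcript and 21 on more.

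The cells were HaCaT, a spontaneously immortalized human keratinocyte line, grown in serum. The study compared cells given nicotinamide (NIC, the amide of vitamin B3) on top of ATRA, cells given 1 µM ATRA, and untreated control cells, all kept for 36 h. ATRA is all-trans retinoic acid, through which vitamin A acts on gene expression. The labels state no dose for nicotinamide, and no array held cells given nicotinamide alone. RNA of each group was hybridised to 1 single-colour array, so treatment, culture and array cannot be told apart, no p-value can be given and every difference describes these 3 arrays.

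As background, ceramide is built from serine and palmitoyl-CoA, and ceramide synthases attach an acyl chain to the sphingoid base. In keratinocytes much of it is converted to glucosylceramide and sphingomyelin, packed into lamellar granules, secreted and turned back into ceramide between the corneocytes. The epidermis also makes acylceramides, whose very long chains carry an esterified linoleate that lipoxygenases oxidise before the lipid is bound to the cornified envelope. Inherited loss of several of these genes, ABCA12, CERS3, ALOX12B and CYP4F22 among them, causes ichthyosis.

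The sequences before the start of FA2H, UGCG and ELOVL5 are shown because these 3 members passed the filter on dim genes and reached the 2-fold rule of size, both explained below. They are the 250 bases before the RefSeq gene start on build GRCh38.p14, written 5′ to 3′ on the strand of the gene, at chr16:74774821-74775070 on the minus strand for FA2H, chr9:111896564-111896813 on the plus strand for UGCG and chr6:53348951-53349200 on the minus strand for ELOVL5. Capitals mark matches to the motifs searched.
FA2H: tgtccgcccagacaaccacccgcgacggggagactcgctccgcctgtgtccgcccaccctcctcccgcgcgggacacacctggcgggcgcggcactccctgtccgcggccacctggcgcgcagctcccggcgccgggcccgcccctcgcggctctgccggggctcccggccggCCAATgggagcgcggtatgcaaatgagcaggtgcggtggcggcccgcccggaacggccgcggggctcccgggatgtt
UGCG: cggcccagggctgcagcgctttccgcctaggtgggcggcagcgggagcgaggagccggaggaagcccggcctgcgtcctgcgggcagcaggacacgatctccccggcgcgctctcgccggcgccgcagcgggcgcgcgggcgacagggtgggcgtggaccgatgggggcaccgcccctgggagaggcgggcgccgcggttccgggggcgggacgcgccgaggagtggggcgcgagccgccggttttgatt
ELOVL5: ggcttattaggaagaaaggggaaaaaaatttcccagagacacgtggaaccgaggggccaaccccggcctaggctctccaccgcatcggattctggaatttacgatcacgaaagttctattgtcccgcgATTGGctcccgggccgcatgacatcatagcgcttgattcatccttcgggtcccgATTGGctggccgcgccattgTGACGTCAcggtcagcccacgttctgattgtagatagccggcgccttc
The motifs were searched on both strands in the same 250 bases of 35116 RefSeq windows, which held 31 of the 35 members in 47 windows. They were the nuclear receptor core motif AGGTCA, the direct repeats of it named DR2 and DR5 for the bases between the copies, through which retinoid receptors bind, the cAMP response element TGACGTCA, the AP-1 element TGACTCA and the CCAAT box. FA2H had a CCAAT box, found in 32.0% of all windows. ELOVL5 had a CCAAT box in 2 places, both on the reverse strand, and a TGACGTCA ending 41 bases before the start. The latter motif stood in 1.65% of all windows and in 1 of the 47 windows of members, too few to set apart from that share. UGCG had none of these motifs. The core motif, in 12.1% of all windows, stood in 6 windows of ALOXE3, CERS3, ELOVL6, SGMS2 and SMPD1. AP-1, in 4.20% of windows, stood in 2, those of SGMS2 and SPHK1. Each direct repeat, searched as exact letters, was in 0.00285% of all windows and in no member's window. At so small a share, absence from 47 windows says nothing about the members. These matches describe letters in a short window only.

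The array files give an intensity per transcript, and the level of a gene is the mean log2 intensity of its transcripts. The median transcript had an intensity of 297.9 with ATRA+NIC, 302.3 with ATRA and 301.5 in the control, and random probes lay at 18.4 to 19.6. A gene passed the filter when its level on at least 1 array was no lower than 7.95 on the log2 scale, which is the median over every gene and array, and 12467 genes did so. Of 10 keratinocyte markers 9 passed, with summed intensities of 59823 with ATRA+NIC, 74509 with ATRA and 95014 in the control, sums carried by a few bright genes. With ATRA 6 of the 10 were higher than in the control and 4 lower. In the same order of arrays LAMB3 was at 18022, 30070 and 16294 and TP63 at 2193, 5913 and 4217, while KRT5 was at 10009, 10041 and 29746 and ITGB4 at 20579, 16769 and 28985. Leukocyte markers summed to 2905, 4754 and 2409, of which CD68 gave 2339, 3399 and 1774, with 4 of 6 passing. CD3E was at 70.6, 501 and 251, CD79A at 110.5, 304 and 119, and PTPRC, which defines these cells, at 18.5, 151 and 33.7. All 6 were higher with ATRA than in the control, beside 11251 of all 23595 genes. With ATRA+NIC all 6 were lower than with ATRA, beside 10793 of these genes. Endothelial markers summed to 3370, 2649 and 329.6, of which CDH5 gave 3263, 2534 and 209, while PECAM1, KDR and TEK stayed under 50. Melanocyte markers summed to 573, 475 and 354, fibroblast markers to 538, 492 and 526, and sebocyte markers to 5493, 4086 and 4779, with 1, 1 and 2 of 6 passing, and TYR, DCN, LUM, MC5R and AWAT1 under 50 on all arrays. Of the sebocyte sums FASN, a fatty acid synthesis gene, gave 4413, 3020 and 3994. The part of these marker levels in the differences below was not tested. In RNA of a whole culture, fewer cells with a transcript and less of it per cell cannot be told apart.

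Of the 35 members 25 passed the filter, 24 of them on all 3 arrays. FA2H passed only through its level on the ATRA array, so it had to differ. The 10 members under the filter were CERS3, DEGS2, SGMS1, SMPD3, ELOVL2, ELOVL3, ELOVL4, CYP4F22, ALOX12B and ALOXE3. Among these, CERS3, DEGS2, ELOVL2, ELOVL3, ELOVL4 and CYP4F22 had a level under an intensity of 50, the lowest value in the authors' value table, on all 3 arrays. CERS3, ELOVL4 and CYP4F22 encode enzymes of acylceramide synthesis, a lipid class of the cornified epidermis.

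**Figure D1:**
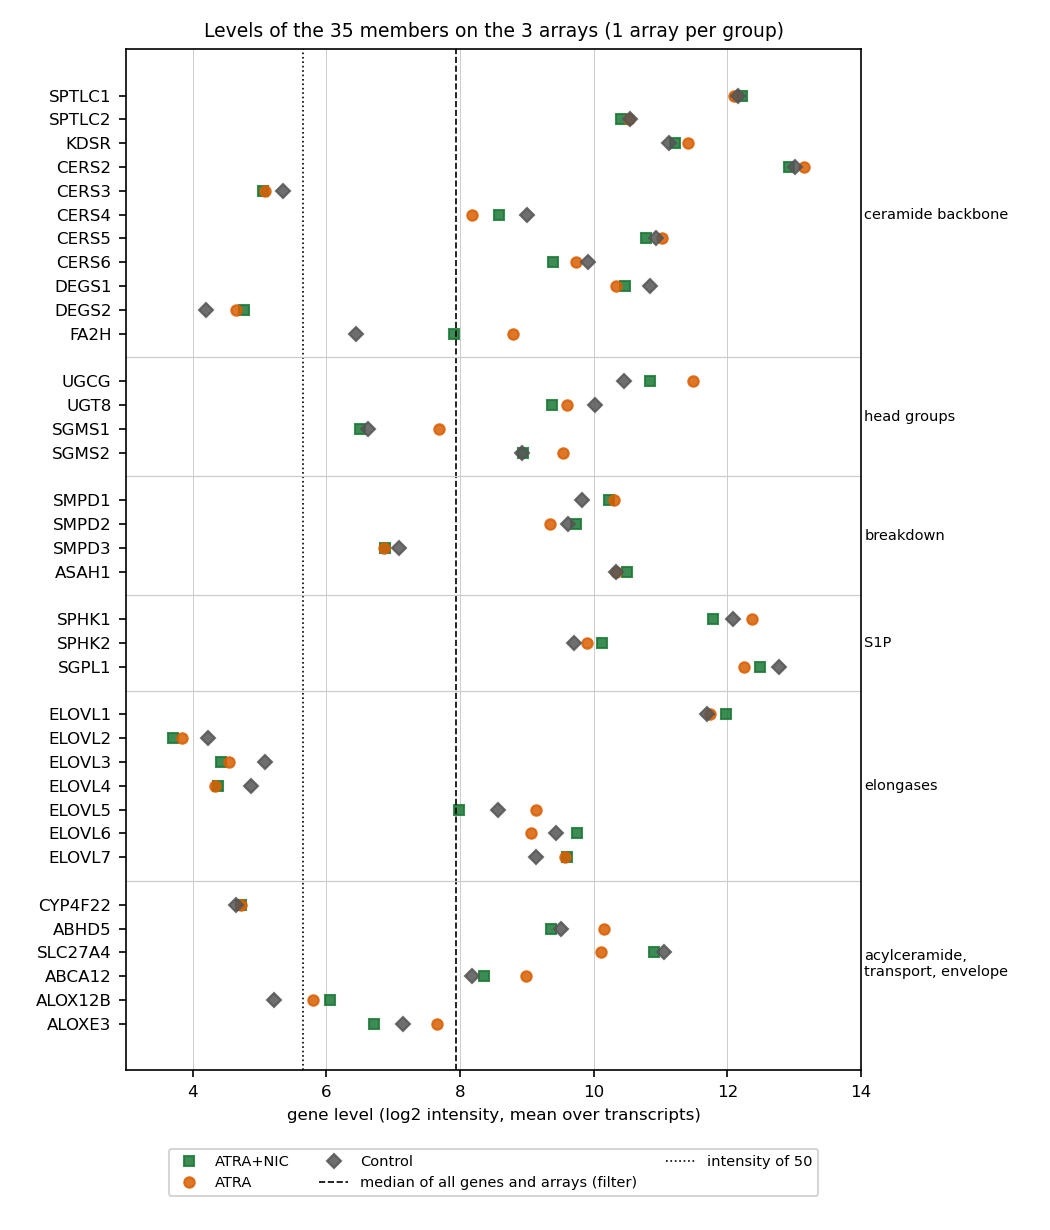
Level of each member (log2 intensity, mean over its transcripts) on the ATRA+NIC (squares), ATRA (circles) and Control (diamonds) arrays, grouped by role. Of the 35 genes 25 reach the dashed line, the median of all genes and arrays, on at least 1 array, and FA2H does so on the ATRA array only.

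Setting ATRA against the untreated control addresses how the retinoid bears on genes of the lipid barrier. FA2H and UGCG were higher with ATRA by 5.06-fold and 2.06-fold, and no member that passed the filter was 2-fold lower. Among all 12467 genes passing the filter 3.83% were 2-fold or more higher and 2.06% lower by as much, and the members' 2 of 25 is a count too small to set apart from that share. FA2H is among the 25 only through its level on the ATRA array. Without the filter 3 of 35 members were 2-fold higher, SGMS1 being the third, and 0 lower, beside 4.23% and 3.22% of all 23595 genes. The median log2 difference was 0.09 over the 25 members and −0.04 over the 12467 genes, and 0.08 and −0.03 over all 35 and all 23595. The 25 members spread to both sides, 14 higher and 11 lower, from −0.94 to 2.34, and 90% of all genes passing the filter lay between −0.75 and 0.89. Within 1.5-fold lay 18 of the 25 members and 10112 of the 12467 genes. At 1.5-fold, a rule added after the data had been seen, 5 of 25 members were higher and 2 lower, beside 9.90% and 8.99% of those genes. The 5 were FA2H, UGCG, ABCA12, ABHD5 and SGMS2, and the 2 were SLC27A4 and CERS4.

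In the ceramide backbone group of 11 genes, FA2H was the only one that differed by 2-fold or more. It encodes the fatty acid 2-hydroxylase that supplies the hydroxylated acyl chains of ceramides. Its single transcript, on chromosome 16 at 73304358 to 73366224 of build hg18, had an intensity of 441 with ATRA and 87.2 in the control. It ranked 75 of 12467 genes from the top, but it is among these genes only through its level on the ATRA array. Its intensity was above that of the random probes on all 3 arrays, and the sequence before its start is the first of those printed above.

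The genes for the first steps differed little. SPTLC1 and SPTLC2, which encode subunits of serine palmitoyltransferase, differed by −0.06 and −0.01 on the log2 scale, and KDSR, the reductase of the next step, by 0.27. The ceramide synthase genes CERS2, CERS5 and CERS6 differed by 0.13, 0.09 and −0.17. CERS4, another ceramide synthase gene, was 1.76-fold lower, with an intensity of 290 with ATRA against 509.8 in the control. DEGS1, which encodes the desaturase that turns dihydroceramide into ceramide, was 1.43-fold lower, at 1288 against 1841, in both of its transcripts.

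Of the 4 genes that add a head group to ceramide UGCG, SGMS1 and SGMS2 were higher and UGT8 lower, beside 47.68% of all 23595 genes higher. UGCG, the glucosylceramide synthase gene, had an intensity of 2881 with ATRA and 1401 in the control, on a single transcript on chromosome 9 at 113699026 to 113735260. SGMS1 and SGMS2 encode the sphingomyelin synthases of the Golgi and of the plasma membrane. SGMS1 was at 206 with ATRA and 98.1 in the control, a 2.10-fold difference under the filter, and SGMS2 at 742 and 484, a 1.53-fold difference. UGT8, which makes galactosylceramide, was 1.33-fold lower. The median of the 4 genes was 0.83, and that of the 3 passing the filter, 2 of them higher, was 0.62.

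Genes of sphingolipid breakdown and of sphingosine 1-phosphate differed by less than 1.5-fold. The acid sphingomyelinase gene SMPD1 was 1.39-fold higher in all 3 of its transcripts, and the neutral sphingomyelinase gene SMPD2 was 1.20-fold lower. ASAH1, the acid ceramidase gene, lay at 1286 with ATRA and 1287 in the control. The sphingosine kinase genes SPHK1 and SPHK2 were 1.21-fold and 1.14-fold higher. SGPL1, which encodes the lyase that degrades sphingosine 1-phosphate, was 1.44-fold lower, with 4883 against 7030.1.

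No elongase gene reached 1.5-fold. ELOVL5, which elongates polyunsaturated fatty acids, was 1.48-fold higher, and ELOVL7 was 1.36-fold higher. ELOVL6, which extends palmitate, was 1.30-fold lower. ELOVL1, the elongase of saturated very long chains, differed by 0.04 on the log2 scale. ELOVL2, ELOVL3 and ELOVL4 were between −0.38 and −0.55, but their intensities of 14.3 to 33.7 on these arrays were near those of random probes and no fold is given.

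Of the genes of acylceramide, transport and the lipid envelope, ABCA12 and ABHD5 were higher and SLC27A4 lower. ABCA12, which encodes the transporter that loads lipids into lamellar granules, was 1.76-fold higher. Its transcripts read 852 and 304 with ATRA against 415 and 202 in the control, so both were higher, by 2.05-fold and 1.51-fold. ABHD5 encodes a lipase cofactor that is mutated in a neutral lipid storage disease with ichthyosis. It was 1.56-fold higher, at 1139.8 with ATRA and 731 in the control. SLC27A4, which encodes a fatty acid transport protein with acyl-CoA synthetase activity, was 1.92-fold lower, the lowest of the members. Its transcripts read 1487 and 821 with ATRA against 2926 and 1531 in the control, so both were lower to a similar extent. The adjacent lipoxygenase genes ALOX12B and ALOXE3, on chromosome 17, were dim. ALOXE3 was at 202 with ATRA and 142 in the control, and ALOX12B at 55.8 and 37.1.

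**Figure D2:**
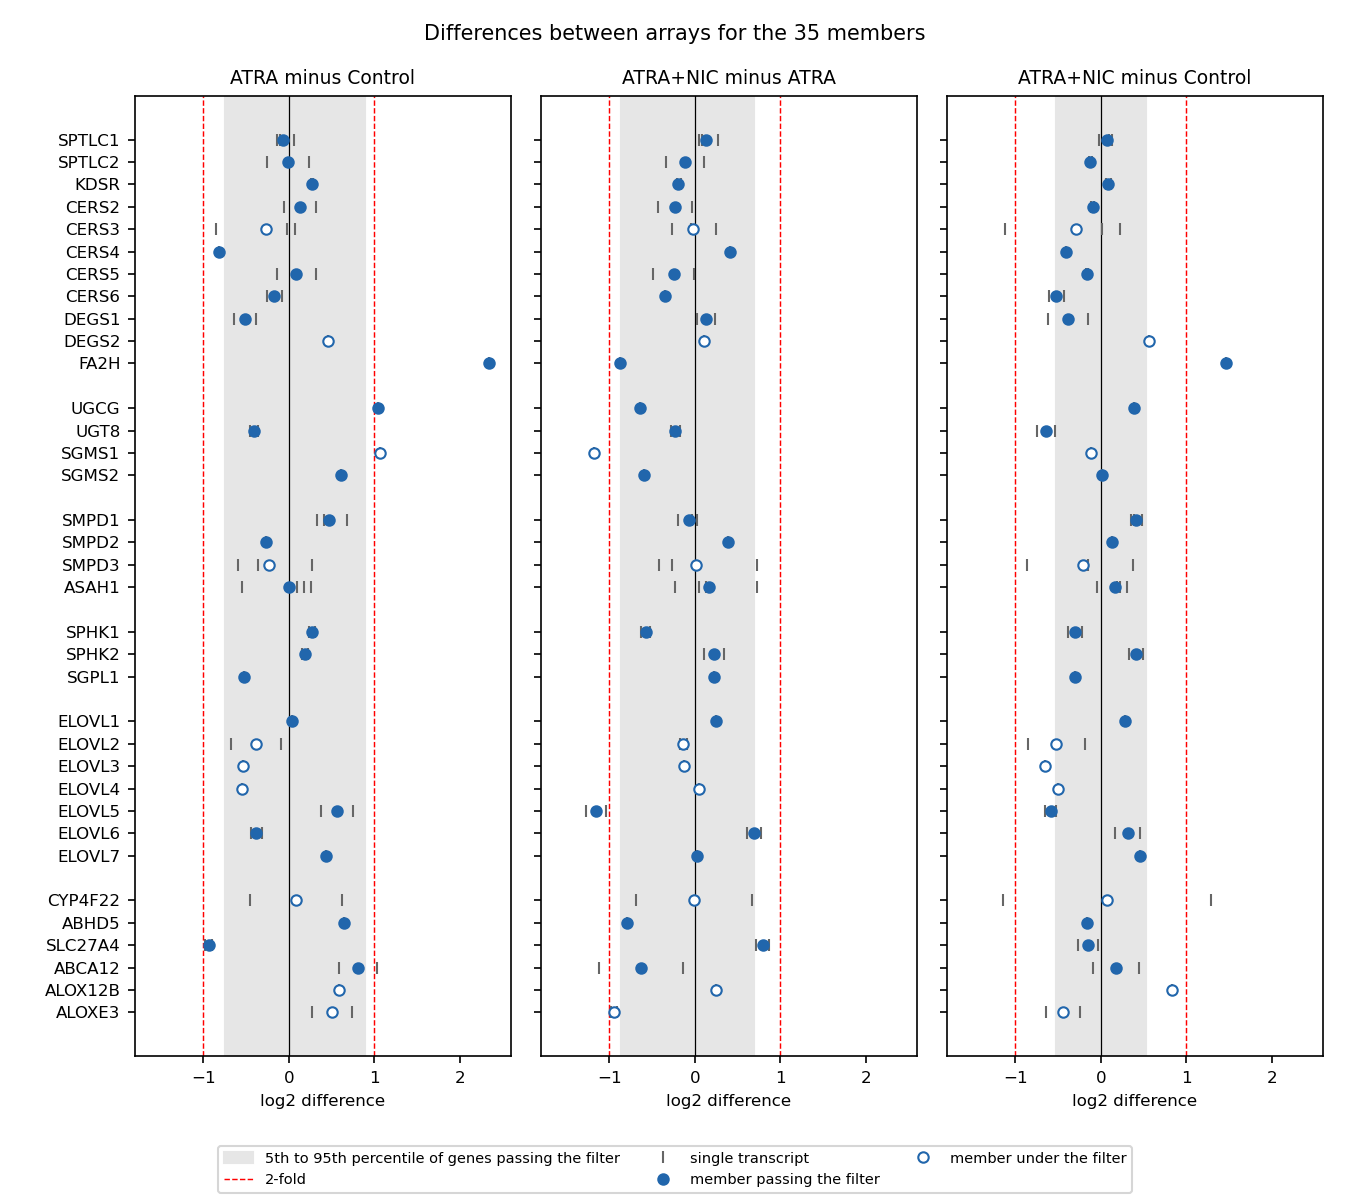
Log2 difference of each member in the 3 comparisons, as ATRA minus Control, ATRA+NIC minus ATRA and ATRA+NIC minus Control, with dots for genes (open where under the filter), ticks for single transcripts, and a grey band over the 5th to 95th percentile of the 12467 genes passing the filter. FA2H at 2.34 lies furthest out in the first panel, ELOVL5 at −1.15 and SGMS1 at −1.18 in the second.

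Setting ATRA+NIC against ATRA addresses the addition of nicotinamide to the retinoid. Both comparisons use the ATRA array and are not independent. ELOVL5 was the one member passing the filter that reached 2-fold, 2.22-fold lower with ATRA+NIC, and no member was 2-fold higher. Among the 12467 genes 3.74% were 2-fold or more lower and 1.35% higher by as much, and 1 of 25 members lower is near that share. Without the filter SGMS1 joined it, making 2 of 35 lower and 0 higher, beside 4.12% and 3.09% of 23595 genes. The median was −0.12 over the 25 members and 0.05 over the 12467 genes. At 1.5-fold 6 of 25 members were lower and 2 higher, beside 9.47% and 7.88% of all genes passing the filter. These counts are small, and the 6 include FA2H. It passed the filter only through the ATRA array, so it had to be lower with ATRA+NIC than with ATRA.

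ELOVL5 lies on chromosome 6, where its longer transcript spans 53240154 to 53321901 on hg18. Its transcripts read 243 and 264 with ATRA+NIC, 587 and 541 with ATRA, and 349 and 416 in the control. Both transcripts had the same order of arrays, lowest with ATRA+NIC and highest with ATRA, and were 2.42-fold and 2.05-fold lower with ATRA+NIC than with ATRA. SGMS1, on chromosome 10, was at 90.8 with ATRA+NIC and 206 with ATRA, 2.27-fold lower and close to the 98.1 of the control.

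The other members lower by 1.5-fold were FA2H, UGCG, ABHD5, SGMS2 and ABCA12. FA2H was at 241 with ATRA+NIC, against 441 with ATRA, 1.83-fold lower. UGCG was at 1839.8 against 2881, 1.57-fold lower, ABHD5 at 655 against 1139.8, 1.74-fold lower, and SGMS2 at 491 against 742, 1.51-fold lower. ABCA12 was 1.55-fold lower, but its transcripts differed, with 391 and 276 with ATRA+NIC against 852 and 304 with ATRA, or 2.18-fold and 1.10-fold lower. ALOXE3, under the filter, was 1.93-fold lower at 105 against 202, in both transcripts. SPHK1, a sphingosine kinase gene, was 1.49-fold lower, at 3537 against 5269, in both transcripts.

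SLC27A4 and ELOVL6 were the 2 members higher by 1.5-fold. SLC27A4 was 1.73-fold higher with ATRA+NIC, with transcripts at 2438 and 1500.3 against 1487 and 821 with ATRA. ELOVL6 was 1.61-fold higher, with transcripts at 670.1 and 1101 against 392 and 722. CERS4 was 1.33-fold higher and SMPD2 1.31-fold higher. The first enzymes of the pathway again differed little, SPTLC1 by 0.13, SPTLC2 by −0.12 and KDSR by −0.19 on the log2 scale.

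**Figure D3:**
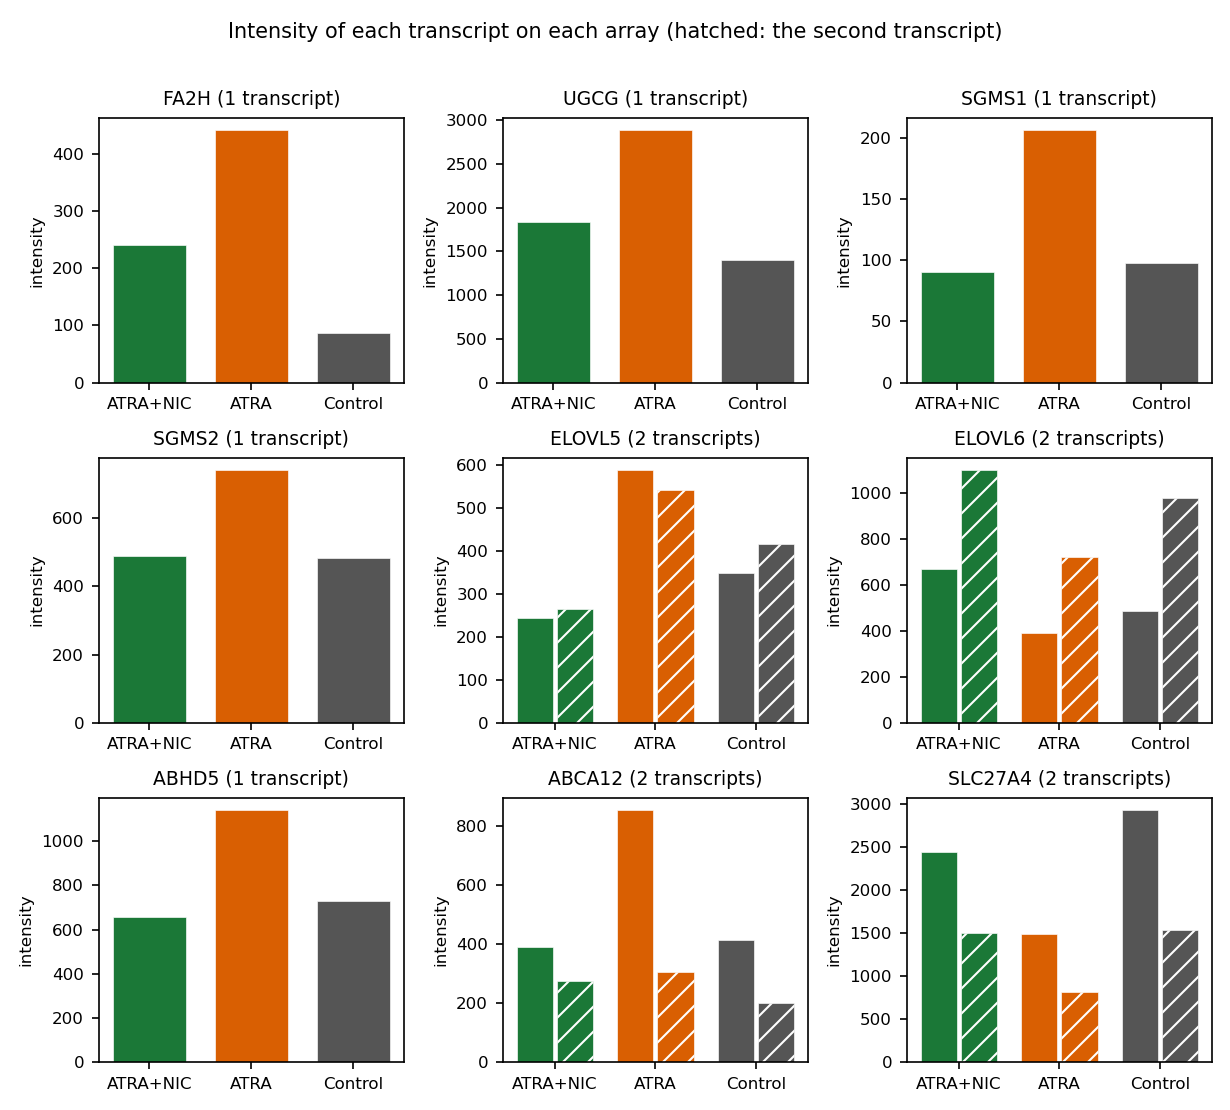
Intensity of each transcript of 9 members on the ATRA+NIC, ATRA and Control arrays, with plain bars for the first transcript and hatched bars for the second. FA2H reads 241, 441 and 87.2 in that order, both transcripts of ELOVL5 are lowest with ATRA+NIC, and both transcripts of SLC27A4 are lowest with ATRA.

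Set against the untreated control, the ATRA+NIC array held 1 member at 2-fold, FA2H, which was 2.77-fold higher at 241 against 87.2. Among 12467 genes 1.03% were 2-fold or more higher and 0.971% lower by as much, and FA2H, which passed the filter through the ATRA array alone, ranked 47 from the top. Without the filter it was still 1 of 35 higher and 0 lower, beside 2.32% and 2.08% of 23595 genes. At 1.5-fold FA2H was again the 1 member higher, beside 3.96% of genes passing the filter, and UGT8 and ELOVL5 were lower, beside 3.87%. The other 24 members passing the filter lay between −0.64 and 0.46, and 90% of all genes passing the filter between −0.53 and 0.53. UGT8 was 1.56-fold lower, with transcripts at 1199.5 and 369 with ATRA+NIC against 1738 and 617 in the control, and with ATRA they were in between, at 1354 and 449. ELOVL5 and CERS6 differed by −0.59 and −0.52 on the log2 scale, each lower in both transcripts, while SGMS2 and SPTLC1 differed by 0.02 and 0.07 on the log2 scale. ELOVL7 was 1.38-fold, SPHK2 1.33-fold and SMPD1 1.33-fold higher. The median was 0.02 over the 25 members passing the filter and −0.01 over the 12467 genes.

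The only measure of scatter comes from transcripts of the same gene, and it is not a spread between replicates. Real differences between transcripts and noise of the probes were not separated in it. Over genes passing the filter with more than 1 transcript, their log2 differences had a pooled SD of 0.31 for ATRA against control, 0.30 for ATRA+NIC against ATRA and 0.24 for ATRA+NIC against control (7074 genes). Over the 21 members with more than 1 transcript it was 0.32, 0.34 and 0.45, but these include members under the filter, unlike the 7074 genes. In the last comparison the transcripts of CYP4F22, CERS3 and SMPD3, all under the filter, ranged over 2.43, 1.35 and 1.23 log2 units. FA2H, UGCG and SGMS1 had a single transcript each and no such check. The same holds for the other members on a single transcript, SGMS2, ABHD5 and CERS4 among them. The transcripts of CERS3, SMPD3 and CYP4F22 disagreed in sign by over 1 log2 unit in at least 1 comparison, and all 3 genes were under the filter. CYP4F22, which encodes the fatty acid hydroxylase of acylceramide synthesis, read 20.1 and 34.5 with ATRA+NIC, 32.3 and 21.7 with ATRA, and 44.4 and 14.2 in the control. SMPD3 had 1 bright transcript, at 677, 408 and 523 in that order of arrays, and a pair at 45.8 to 93.6. CERS3 had 1 transcript at 124, 104 and 106 and a pair at 16.8 to 36.5, so no direction is given for these genes.

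Other genes of the pathway were listed by knowledge of the field, with earlier results of these data known. Of 50 other sphingolipid genes, such as sphingolipid hydrolases, ceramide transfer and sphingosine 1-phosphate receptors, 30 passed the filter. None of these reached 2-fold for ATRA against control, beside 3.83% higher and 2.06% lower of all genes passing the filter. Their median was 0.08. For ATRA+NIC against ATRA the median was 0.06, and 0 were higher and 1 lower by 2-fold, beside 1.35% and 3.74%. That one was CERT1, which encodes the protein that carries ceramide to the Golgi for sphingomyelin synthesis. It was at 138 with ATRA+NIC and 282 with ATRA, 2.04-fold lower, or 1.38-fold lower with dim transcript values set to 50. It passed the filter only on the ATRA array. Without the filter 2 of 50 were 2-fold higher and 1 lower for ATRA against control, beside 4.23% and 3.22% of all genes. For ATRA+NIC against ATRA 0 were higher and 2 lower, beside 3.09% and 4.12%.

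Of 40 other genes of epidermal lipids 26 passed the filter, and 3 were at least 2-fold higher for ATRA against control and 0 lower, with a median of −0.07, beside 3.83% higher and 2.06% lower of all genes passing the filter. ALOX5, the lipoxygenase gene of leukotriene synthesis, was 4.82-fold higher at 652.5 with ATRA and 135 in the control, and it passed the filter only through the ATRA+NIC and ATRA arrays, so it had to differ. ACSL5, a long-chain acyl-CoA synthetase gene, was 2.56-fold higher at 2427 against 947, in both transcripts. PNPLA2, the triglyceride lipase gene whose product is activated by that of ABHD5, was 2.24-fold higher at 6381 against 2845. With ATRA+NIC these read 612, 2301 and 5082, which left ALOX5 and ACSL5 at 4.52-fold and 2.43-fold over the control and PNPLA2 at 1.79-fold. So 2 of 26 were 2-fold higher and 0 lower for ATRA+NIC against control, beside 1.03% and 0.971% of all genes passing the filter. ALOX5 and PNPLA2 had a single transcript each. For ATRA+NIC against ATRA none of the 26 reached 2-fold, with a median of 0.15, beside 1.35% higher and 3.74% lower of all genes passing the filter. Of 11 regulators, among them the PPAR, LXR and SREBP genes, 9 passed the filter and none reached 2-fold in either comparison, with medians of −0.18 and 0.09.

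**Figure D4:**
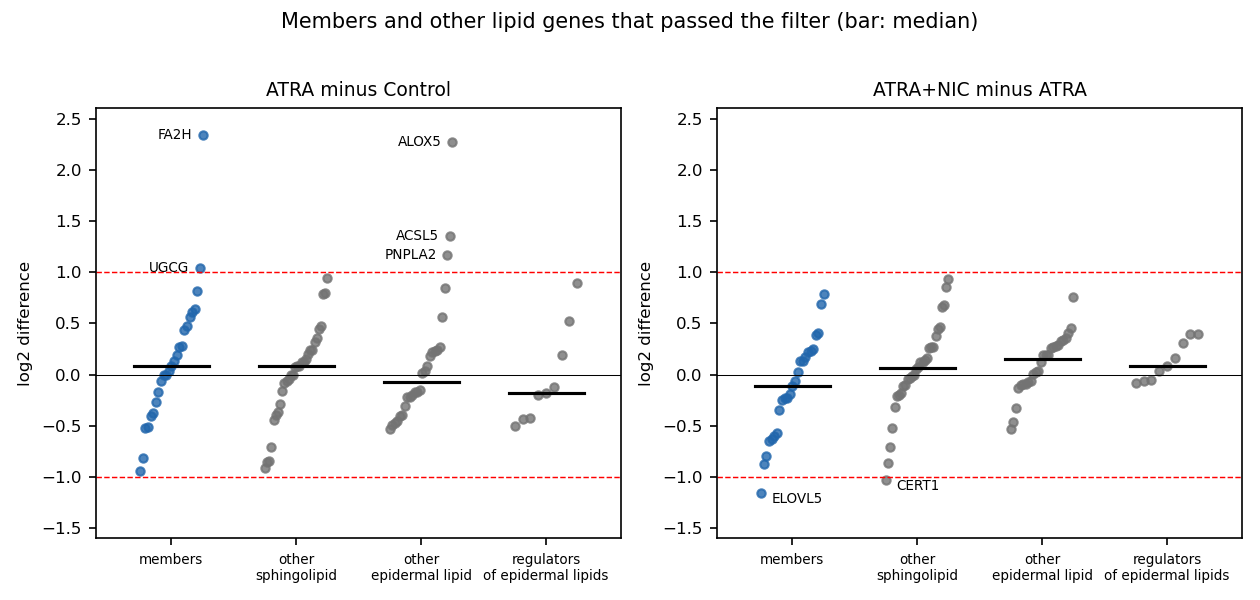
Log2 differences, as ATRA minus Control and ATRA+NIC minus ATRA, of the 25 members and of 30 other sphingolipid genes, 26 other epidermal lipid genes and 9 regulators that passed the filter, with bars at the medians and names at 2-fold or more. FA2H at 2.34 and ALOX5 at 2.27 stand highest in the first panel, and CERT1 at −1.03 rests on a dim transcript.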

How the data were processed

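RNA of HaCaT cells was hybridised to 3 NimbleGen single-colour arrays labelled with Cy3, with 1 array per group. Per the file headers and labels, the deposited values are linear intensities, RMA gene calls for 45033 transcripts, over 3 probes each except for 2 transcripts with fewer. RMA corrects background, normalizes between arrays and summarises probes, while the sources used here do not name the software. A further column headed as a standard error has no defined unit and was not used.

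Intensities were taken as log2 without further scaling. Of these transcripts 42947 carried a gene name, and names were updated by Entrez number through RefSeq of GRCh38.p14, which matched 20230 of 23619 numbers. Coordinates of transcripts are those of the files on hg18. The level of a gene is the mean log2 value of its transcripts. The filter and the 2-fold rule are those of the text, and fold differences involving values under 50 were also computed with these set to 50. Groups of 1 array allow no test, arrays have no read depth, and precision is limited by the number of arrays. The members and lists were chosen with earlier results of these data known. All members are named. Other pathway genes are named where they passed the filter and reached 2-fold in any comparison, and markers where needed to check the cell type. Sequences are from RefSeq. Calculations used Python 3.11.15, numpy 2.4.6 and pandas 2.3.3 and were tested on simulated data. Alternatives were the brightest or median transcript, the value table, an offset, a floor, other filters and equal array medians, with a 1.5-fold rule added after the data had been seen.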

Additional observations from a re-analysis of the deposited data

How the results depend on the processing

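Each count and median of the members and each member's difference was recomputed under 8 alternatives, of which the filters do not alter single differences. The value table lists only transcripts of at least 50 on every array, so the differences of DEGS2, ELOVL2, ELOVL3, ELOVL4, CYP4F22 and ALOX12B were not recomputed under it. The 6 member differences of at least 2-fold, including those of SGMS1 under the filter, kept their sign in all 36 recomputed values and stayed at least 2-fold in 31. An offset of 100 before log2 took the other 5 under 2-fold, with FA2H at 0.87 for ATRA+NIC against control, UGCG at 0.99, SGMS1 at 0.63 and −0.68, and ELOVL5 at −0.91, and left FA2H at 1.53 for ATRA against control. For ATRA against control the number of members 2-fold higher was 1 in place of 2 with the value table, the offset and the 75th-percentile filter, 3 with the brightest transcript, where ABCA12 was at 1.04, and 3 with no filter, which adds SGMS1. For ATRA+NIC against ATRA the number lower was 0 in place of 1 with these 3 settings and 2 with the brightest transcript, where ABCA12 was at −1.12, and 2 with no filter, which adds SGMS1. For ATRA+NIC against control the number higher was 0 in place of 1 with the same 3 settings. The value table and the stricter filter raise the level a gene must reach, which removes FA2H and ELOVL5. At 1.5-fold, 5 members were higher and 2 lower for ATRA against control, 2 higher and 6 lower for ATRA+NIC against ATRA, and 2 lower for ATRA+NIC against control. The medians moved by less than the scatter between transcripts under every alternative, and of 612 recomputed member differences 41 moved by more than it, mostly those of dim genes. Equal array medians changed no count. No paired analysis was possible because each group has 1 array and the labels give no replicate numbers. Leaving out a replicate was not possible for the same reason.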
